A study of Mus musculus with 8 samples.

Results

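The 7 genes of the Pnma family, Pnma1, Pnma2, Pnma3, Pnma5, Moap1, Zcchc12 and Zcchc18, were followed in mouse embryonic stem cells (ESCs) depleted of KDM2B, out of 19938 genes read by an array probe set of their own. Their signals were compared between 4 arrays of E14 ESCs that stably express an shRNA against Kdm2b and 4 arrays of E14 ESCs that stably express a scrambled shRNA, all grown with LIF. E14 is a feeder-independent ESC line, and the shRNAs were delivered by lentivirus and kept under puromycin selection. Knockdown samples were of passages 27 to 30 and control samples of passages 28 to 31. Each group carries 1 shRNA, and the labels do not say whether replicates of a group were transduced separately. The genes were chosen by their family and with their log2 differences between these knockdown and control arrays in view, so that their values are given as a description and no p-value is attached to them. Of the 7 genes, 6 had a probe set of their own. Moap1 is read only by a probe set that also names another gene, and no value is given for it.

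Pnma genes descend from the gag gene of an LTR retrotransposon that was taken over by the mammalian genome. PNMA1 and PNMA2 are known as the Ma antigens, which autoantibodies recognise in paraneoplastic neurological disease, and PNMA2 protein can assemble into capsids that resemble those of viruses. Other members have come to act in signalling, as does MOAP1 in cell death. KDM2B binds non-methylated CpG dinucleotides through its ZF-CxxC domain and brings a variant polycomb repressive complex to CpG islands.

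The sequences that define the 2 groups are the 21-base shRNA targets given in the labels, written 5′ to 3′.
shKdm2b: cgctgtggaaatatctgtcat
shScrambled: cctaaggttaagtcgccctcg

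Because KDM2B reads CpG dinucleotides, the start sites of 5 genes on which the results turn are shown with every CpG in capitals. In the Pnma5 sequence alone, an octamer of the kind bound by POU factors is also in capitals. Each window holds 250 bases before and 50 bases after a RefSeq start site of GRCm38.p6, on the strand of the gene. Pnma5 lies at chrX:73037054-73037353 on the minus strand, Pnma3 at chrX:73064537-73064836, Zcchc18 at chrX:136992897-136993196, Zfp185 at chrX:72987089-72987388 and Nsdhl at chrX:72918271-72918570, all 4 on the plus strand. Zfp185 and Nsdhl are neighbours of Pnma5.
Pnma5: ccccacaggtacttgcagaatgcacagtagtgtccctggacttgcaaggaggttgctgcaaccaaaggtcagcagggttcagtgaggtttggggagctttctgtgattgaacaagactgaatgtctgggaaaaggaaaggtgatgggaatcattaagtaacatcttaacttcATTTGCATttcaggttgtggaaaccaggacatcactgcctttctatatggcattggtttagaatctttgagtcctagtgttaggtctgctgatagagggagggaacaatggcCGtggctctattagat
Pnma3: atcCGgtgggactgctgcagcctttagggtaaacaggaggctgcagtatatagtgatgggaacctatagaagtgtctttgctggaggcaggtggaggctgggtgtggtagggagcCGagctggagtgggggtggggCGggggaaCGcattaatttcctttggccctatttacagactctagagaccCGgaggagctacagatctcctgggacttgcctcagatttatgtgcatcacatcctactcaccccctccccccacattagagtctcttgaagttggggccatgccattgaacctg
Zcchc18: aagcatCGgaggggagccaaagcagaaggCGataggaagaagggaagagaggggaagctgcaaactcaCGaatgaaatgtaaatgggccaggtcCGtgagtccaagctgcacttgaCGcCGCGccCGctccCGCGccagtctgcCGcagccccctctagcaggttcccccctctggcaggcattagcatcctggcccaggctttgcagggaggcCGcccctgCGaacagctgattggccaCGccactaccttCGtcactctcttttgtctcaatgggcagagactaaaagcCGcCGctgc
Zfp185: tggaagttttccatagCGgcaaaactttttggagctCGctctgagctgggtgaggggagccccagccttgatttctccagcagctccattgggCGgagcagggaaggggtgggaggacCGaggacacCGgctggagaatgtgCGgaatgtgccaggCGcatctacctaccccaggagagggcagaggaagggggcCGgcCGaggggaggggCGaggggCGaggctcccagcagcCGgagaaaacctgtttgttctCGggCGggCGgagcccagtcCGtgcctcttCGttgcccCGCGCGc
Nsdhl: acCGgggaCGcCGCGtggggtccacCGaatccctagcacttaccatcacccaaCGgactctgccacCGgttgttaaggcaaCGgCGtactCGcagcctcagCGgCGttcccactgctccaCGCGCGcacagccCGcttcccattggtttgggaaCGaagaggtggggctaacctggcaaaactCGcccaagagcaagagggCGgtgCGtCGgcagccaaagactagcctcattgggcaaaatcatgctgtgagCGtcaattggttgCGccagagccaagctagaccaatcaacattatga

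The family differs widely in the CpG content of these windows. Pnma5 holds 1 CpG in 300 bases, and 14.1% of all 32851 RefSeq windows hold as few. The Pnma3 window holds 5, against a median of 7 over all windows, and that of Zcchc12 holds 11. Zcchc18 has 2 listed start sites with overlapping windows, which hold 17 and 16 CpGs. The windows of Pnma1 and Moap1 are the richest, with 23 and 32, and 9.52% of all windows hold as many as that of Moap1. Of the 10 neighbours of Pnma5, windows were examined only for the 2 that rose, with 20 CpGs in Zfp185 and 23 in Nsdhl. For Pnma5 the annotated gene reaches further upstream than this start site, so that the window describes 1 start and not every start the gene may use. CpG methylation was not measured on these arrays.

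**Figure D1:**
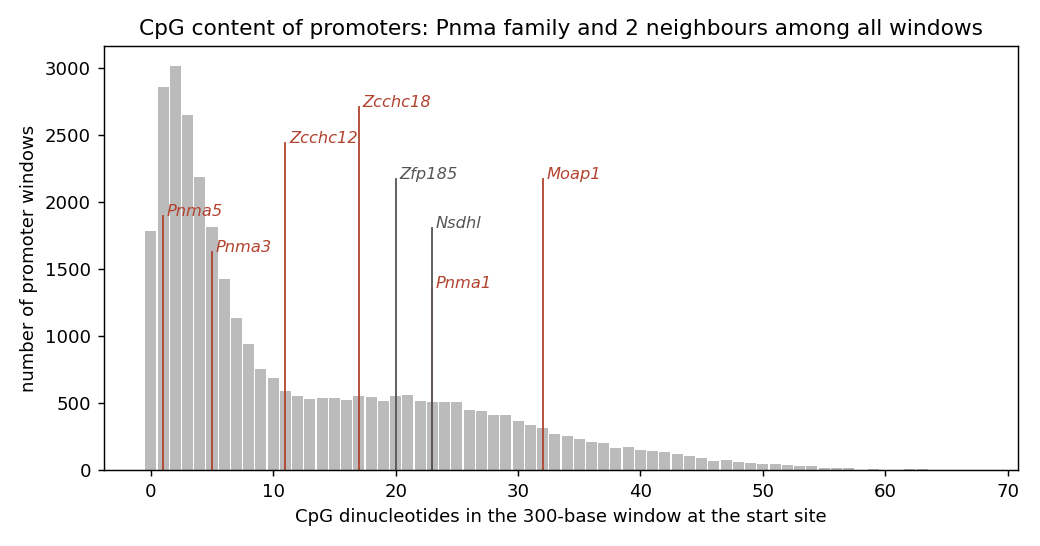
Number of RefSeq promoter windows (vertical axis) by the number of CpG dinucleotides they hold (horizontal axis), with lines at the first listed start site of 6 Pnma family genes (red) and of Zfp185 and Nsdhl (grey); the height of a line has no meaning. Pnma5, with 1 CpG, stands at the low end and Moap1, with 32, at the high end.

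The octamer ATGCAAAT, searched on both strands, lies 78 bases before the Pnma5 start site, where it reads ATTTGCAT on the strand shown. It is found in 1.74% of all windows and in none of the other Pnma windows. CCAAT, also searched on both strands, is found in the windows of Pnma5, Zcchc12 and Zcchc18 and in 37.4% of all windows. TATAAA is in none of the Pnma windows and in 13.6% of all windows. These motifs were picked with the sequences and the array values in view, and a match is a string of letters and not evidence of binding. No long sequence is shared between the windows of different family genes. The longest run common to a pair, 12 bases, was found between Zcchc12 and Zcchc18 and between Pnma3 and Moap1.

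Kdm2b mRNA had a log2 signal of 8.68 to 9.45 on the knockdown arrays, against 10.74 to 11.34 on the control arrays, which put the log2 difference at -2.05 (limma, adjusted p = 0.000891, standard error 0.18). The medians of all 8 arrays lay between 8.47 and 8.53, since the authors had given the arrays 1 common distribution. Pluripotency markers averaged 13.01 to 13.04 on the knockdown arrays and 12.80 to 13.03 on the control arrays, and none of the 10 met the gene rule with limma (unadjusted p under 0.05 in 6, of which 5 were higher, beside 16.8% of all genes higher and 13.6% lower). The gene rule is that of the study's methods and asks for an adjusted p under 0.05 in most probe sets of a gene and a change of at least 1.5-fold. These p-values measure the spread between the samples, which the labels call biologically independent. The samples of a group are of consecutive passages with 1 shRNA, so that the spread between shRNAs is not measured.

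Pnma5 stood apart from the rest of the family. In replicates 1 to 4 it reached log2 signals of 9.28, 10.08, 10.35 and 10.18 on the knockdown arrays, against 7.85, 7.98, 7.97 and 8.23 on the control arrays. The groups did not overlap, and the lowest knockdown array lay 1.04 above the highest control array. The mean signal was 9.97 ± 0.48 on knockdown arrays and 8.01 ± 0.16 on control arrays (SD, n = 4 each), a log2 difference of 1.97 (standard error 0.21) or 3.91-fold. The control arrays of Pnma5 lay below every array median, as did Pnma1, Pnma3 and Zcchc12 on all arrays, so that the fold is relative to a dim signal. By the size of its rise it ranked 6 among the 19938 genes. Knockdown replicate 1, of passage 27, was the lowest of its group, and without it the log2 difference was 2.20. Between arrays of the same replicate number the log2 difference was 1.43, 2.10, 2.38 and 1.95 in replicates 1 to 4. Between arrays of the same passage, which leaves out knockdown replicate 1, the difference was 2.23 at passage 28, 2.37 at passage 29 and 2.22 at passage 30.

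The other family members on the X chromosome differed far less between the groups. Zcchc18, a close relative of Zcchc12, had log2 signals of 8.58, 8.51, 8.40 and 8.66 on the knockdown arrays and 8.13, 8.19, 8.30 and 8.17 on the control arrays. All knockdown arrays lay above all control arrays, by at least 0.10. The log2 difference was 0.34 (standard error 0.07), or 1.27-fold. Control arrays of Zcchc18 lay below every array median, so that this fold is also relative to a dim signal.

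Pnma3, whose product carries a zinc knuckle and whose gene is the nearest measured gene to Pnma5 on its other side, was dim on all arrays. Its log2 signal was 6.90, 6.72, 6.70 and 6.65 on the knockdown arrays and 6.52, 6.59, 6.54 and 6.60 on the control arrays. The groups were separated by 0.05 only, and the log2 difference was 0.18 (standard error 0.06).

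Zcchc12, which encodes a coactivator of BMP and SMAD dependent transcription also called SIZN1, ran the other way. Its signal was 7.98, 7.89, 7.97 and 7.98 on the knockdown arrays against 8.07, 8.10, 8.09 and 8.02 on the control arrays. Here the control arrays were the higher ones, without overlap, and the log2 difference was -0.11 (standard error 0.05), the smallest in size of the 6 measured genes.

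On the autosomes, the groups overlapped for both measured genes. Pnma1, on chromosome 12, had log2 signals of 8.08, 8.0, 7.84 and 7.86 on the knockdown arrays and 7.65, 7.93, 7.91 and 7.72 on the control arrays. Its log2 difference was 0.14 (standard error 0.09). Pnma2, on chromosome 14, had signals of 8.71, 8.98, 9.0 and 9.14 on the knockdown arrays and 9.01, 9.17, 9.12 and 9.25 on the control arrays. Its log2 difference was -0.18 (standard error 0.10), and knockdown replicate 1 was the lowest of all 8 arrays. The same array was the highest for Pnma1 and Pnma3 and the lowest of the knockdown arrays for Pnma5.

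**Figure D2:**
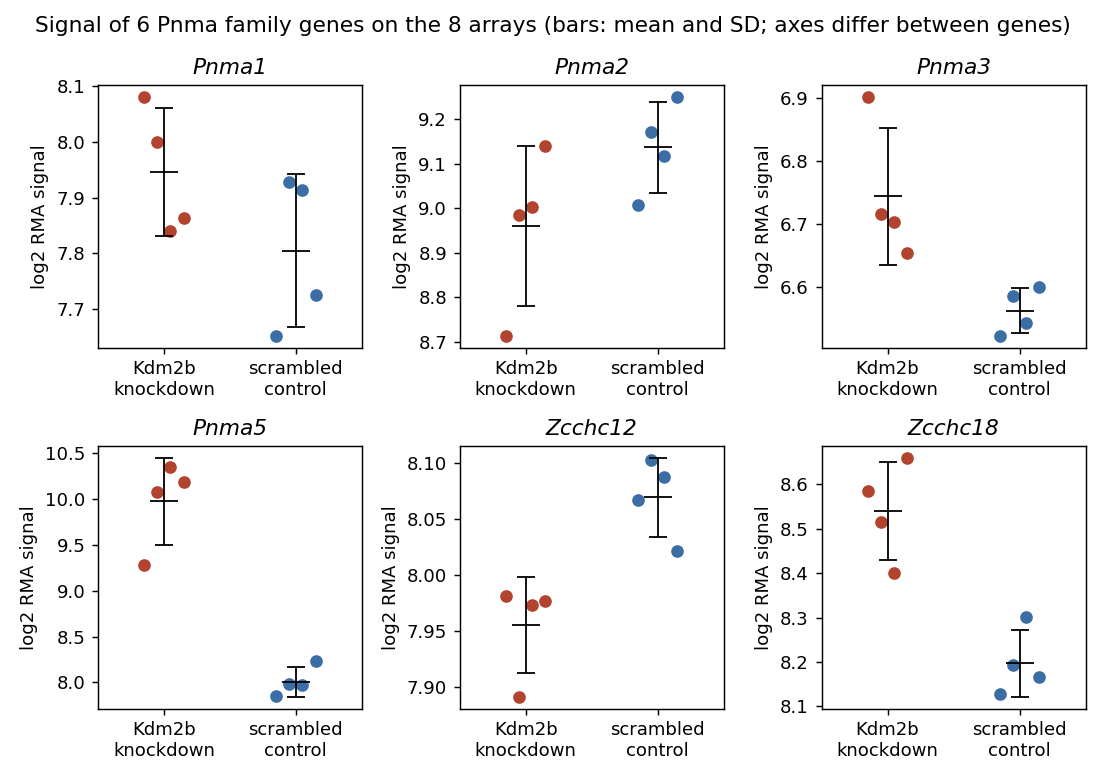
Log2 RMA signal (vertical axis, a separate range for each gene) of the 6 measured Pnma family genes, on 4 Kdm2b knockdown arrays (left, red) and 4 scrambled control arrays (right, blue). Points are arrays, in replicate order from left to right, and bars show the mean and SD; the Pnma5 groups lie 1.04 apart, whereas Pnma1 and Pnma2 overlap.

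By the gene rule of the study, 1 of the 6 measured family genes, Pnma5, was higher, beside 1.42% of all genes that rose, 1.43% that fell and 2.85% that met the rule in either direction. In 4 of the 6 the groups did not overlap, 3 with the knockdown arrays higher and 1 with them lower, beside 21% of all genes (11.8% higher and 9.18% lower). These counts belong to the comparison with which the family was listed, and nothing is read from them. The median log2 difference of the 6 genes was 0.16, beside 0.05 over all genes. Pnma1, Pnma3 and Zcchc12 lay below the array median on all 8 arrays. RMA compresses the differences of dim probe sets, which limits what the log2 differences of these genes can show. The same holds for Pnma5 and Zcchc18 against their dim controls.

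Related genes of the same origin had smaller log2 differences than Pnma5. Of 4 further Pnma family genes, 3 were measured, and none met the gene rule with limma, while 1 was higher and none lower where p under 0.05 was taken unadjusted, as in 16.8% (higher) and 13.6% (lower) of all genes. Pnmal2 had a log2 difference of 0.24 (limma, adjusted p = 0.192, standard error 0.11), and Ccdc8, which encodes a partner of the growth-linked 3M complex proteins, one of -0.11 (limma, adjusted p = 0.300, standard error 0.06). These genes lie together on chromosome 7.

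Of 15 other genes that stem from genes of retrotransposons and retroviruses, 12 were measured and none met the gene rule with limma. Where p under 0.05 was taken unadjusted, 1 was higher and none lower, beside the same 16.8% and 13.6% of all genes. Their median log2 difference was 0.07, beside 0.05 over all genes. Peg10 and Rtl1, imprinted genes that the mouse needs for its placenta, had log2 differences of -0.04 and 0.08 (limma, adjusted p = 0.777 and 0.405, standard errors 0.07 and 0.05). Arc, whose protein forms capsids in neurons, had one of -0.09 (limma, adjusted p = 0.600, standard error 0.10). Rtl4, an X-linked relative of Peg10, had a log2 difference of 0.15 (limma, adjusted p = 0.274, standard error 0.08).

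Ldoc1, an X-linked gene of the same sushi-ichi family as Peg10, came closest. Replicates 1 to 4 had log2 signals of 8.74, 9.51, 9.61 and 9.14 for knockdown, against 8.16, 8.63, 8.78 and 8.94 for control. The groups overlapped, although each knockdown array lay above the control array of its own number. The log2 difference was 0.62 (limma, adjusted p = 0.120, standard error 0.22). With the replicate number as a block, as the arrays are paired by it, adjusted p = 0.0342 (limma), and the rise met the rule. Under the other 12 alternatives run on it Ldoc1 did not meet the rule, at log2 differences of 0.47 to 0.90. With 1 array left out at a time, limma gave it an adjusted p of 0.0576 to 0.256.

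**Figure D3:**
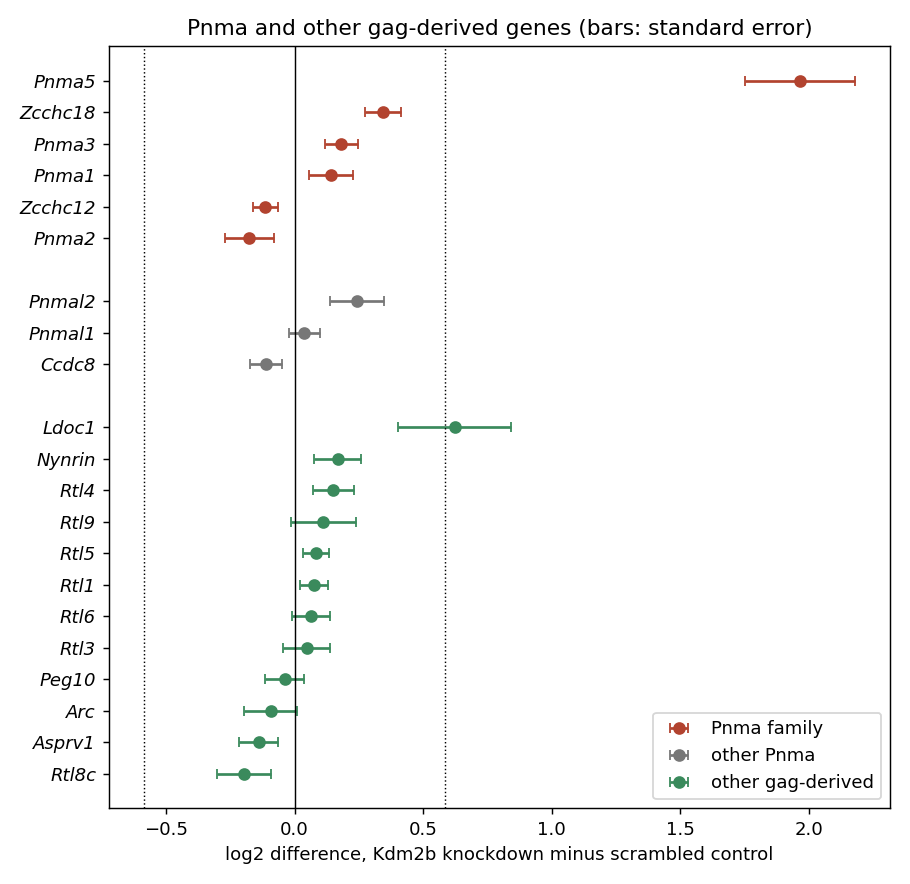
Log2 difference between Kdm2b knockdown and scrambled control arrays (horizontal axis) for 6 Pnma family genes (red) and 3 further family genes (grey). The 12 other genes of retrotransposon or retrovirus origin are in green, labelled other gag-derived. Points are log2 differences with their standard errors from limma (4 arrays per group) and dotted lines mark 1.5-fold; Pnma5 at 1.97 lies beyond all others and Ldoc1 follows at 0.62.

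Pathways in which family proteins act were examined next. MOAP1 links death receptors and RASSF1 to the cell death factor BAX. Of 19 genes around this route, 17 were measured, 1 rose, none fell and the rule was not met by 16 (median log2 difference -0.02). Of all genes, 1.42% rose and 1.43% fell by the rule. At unadjusted p under 0.05, 4 of the 17 were higher and 4 lower (limma), beside 16.8% and 13.6% of all genes. Rassf1, which encodes a partner of MOAP1, had log2 signals of 9.64, 9.52, 9.73 and 9.73 on the knockdown arrays and 9.11, 8.81, 8.89 and 8.98 on the control arrays. It rose by 0.71 (limma, adjusted p = 0.00327, standard error 0.08), with no overlap between the groups. With passages 28 to 30 alone and passage as a block, adjusted p = 0.0849 (limma) at a log2 difference of 0.72.

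ZCCHC12 acts with SMAD1 in BMP signalling. Of 22 genes of this pathway, all measured, 1 rose, 1 fell and the rule was not met by 20 (median log2 difference 0.01). Of all genes, 1.42% rose and 1.43% fell by the rule. At unadjusted p under 0.05, 5 of the 22 were higher and 2 lower (limma), beside 16.8% and 13.6% of all genes. Id1, a direct target of BMP signalling, had log2 signals of 10.14, 10.12, 10.32 and 10.15 on the knockdown arrays and 10.70, 10.80, 11.13 and 11.14 on the control arrays, and fell by 0.76 (limma, adjusted p = 0.00691, standard error 0.11). The ligand gene Bmp7 rose by 1.14 (limma, adjusted p = 0.0366, standard error 0.27), to 10.44 ± 0.60 on knockdown arrays, against 9.30 ± 0.20 on control arrays (SD, n = 4 each). The call on Bmp7 was lost when knockdown array 2 or 4, or control array 2, 3 or 4, was left out, where limma gave adjusted p = 0.0901 to 0.0971 at log2 differences of 1.09 to 1.16. With passages 28 to 30 alone and passage as a block neither gene passed, at adjusted p = 0.0872 for Id1 (log2 difference -0.68) and 0.0865 for Bmp7 (0.88) by limma. With the replicate number as a block, Id3, another target of BMP signalling, also met the rule. Its log2 difference was -1.03 at adjusted p = 0.0325 (limma), against 0.0681 without the block. Smad7 had a log2 difference of 0.43 (limma, adjusted p = 0.0343, standard error 0.10), a rise short of 1.5-fold.

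Because 4 of the 7 family genes are X-linked, the genes beside them on the chromosomes were tested. For each family gene, the 5 nearest measured genes on each side were taken, which gave 60 genes, Pnma3 and Pnma5 having the same 10. Of these, 3 rose, 2 fell and the rule was not met by 55 (median log2 difference 0.03, beside 0.05 over all genes). All 5 lie on the X chromosome, where 2.83% of 742 genes rose and 2.29% fell, beside 1.37% and 1.4% of 19166 autosomal genes. None of the neighbours of Pnma1, Pnma2 or Moap1 met the rule, although 2 neighbours of Pnma1 and 1 each of Pnma2 and Moap1 passed the adjusted p of limma with a rise short of 1.5-fold.

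The nearest measured genes on one side of Pnma5 were also higher in knockdown cells. Zfp185, the next measured gene, encodes a LIM domain protein that associates with actin. Its log2 signal was 10.08, 10.13, 10.04 and 10.19 on the knockdown arrays and 9.08, 8.99, 9.16 and 9.11 on the control arrays. It rose by 1.03, or 2.04-fold (limma, adjusted p = 0.000149, standard error 0.06), with a gap of 0.88 between the groups. Nsdhl, the gene beyond it, encodes a sterol dehydrogenase of cholesterol synthesis. Its log2 signal was 12.41, 12.52, 12.57 and 12.54 on the knockdown arrays, above the 11.96, 11.82, 11.92 and 11.86 of the control arrays. It rose by 0.62, or 1.54-fold (limma, adjusted p = 0.00136, standard error 0.06).

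Log2 differences were 1.97 in Pnma5, 1.03 in Zfp185 and 0.62 in Nsdhl, against 0.18 in Pnma3 on the other side of Pnma5. The other neighbours lay between -0.00 and 0.16. Pnma5 was listed with its difference in view, and nothing is read from the smaller ones of its neighbours. Cetn2, a centrin gene next to Nsdhl, had a log2 difference of 0.09 (limma, adjusted p = 0.632), and on the other side of Pnma3, F8a had one of 0.02 (limma, adjusted p = 0.892). Genes of the Xlr family, which lie between Pnma3 and Zfp275, are read only by probe sets that name several of them and were not analysed here.

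**Figure D4:**
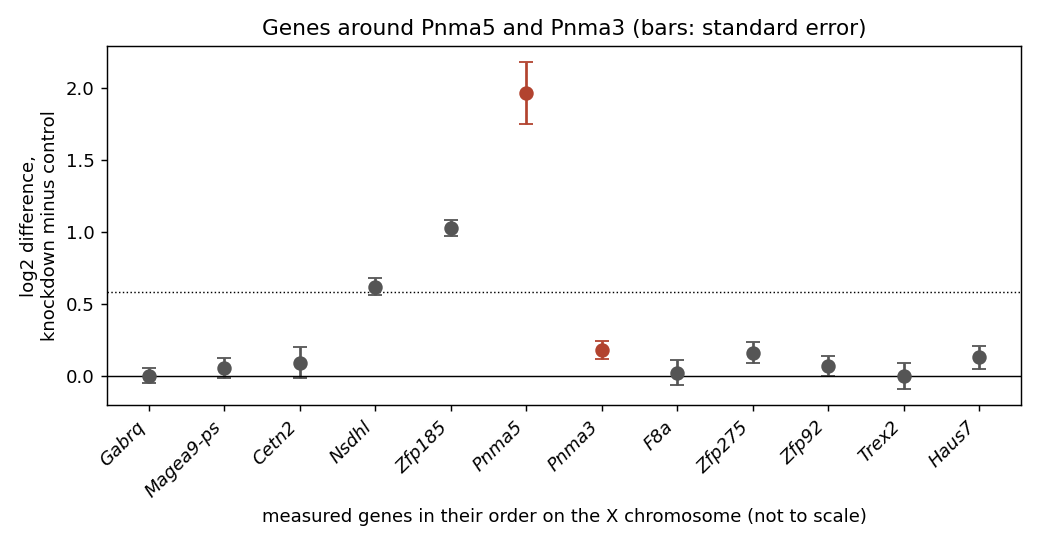
Log2 difference between Kdm2b knockdown and scrambled control arrays (vertical axis) for Pnma5, Pnma3 (red) and the 5 nearest measured genes on either side (grey), in the order in which they lie on the X chromosome. Points are log2 differences with their standard errors from limma (4 arrays per group) and the dotted line marks 1.5-fold; Nsdhl at 0.62, Zfp185 at 1.03 and Pnma5 at 1.97 lie above it.

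The arrays did not rank alike for these neighbours. Pnma5 was lowest of its group in knockdown replicate 1, as was Nsdhl, whereas for Zfp185 knockdown replicate 3 was the lowest. After the mean of each group was taken off, the values of Pnma5 and Nsdhl correlated at r = 0.61 and those of Pnma5 and Zfp185 at r = 0.14 over the 8 arrays, given as a description.

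Near the other X-linked members the changes went both ways. Esx1, a homeobox gene near Zcchc18, rose by 0.64 (limma, adjusted p = 0.00627, standard error 0.09), and Nrk, a kinase gene on the same side, fell by 0.79 (limma, adjusted p = 0.00586, standard error 0.11). Il13ra1, a cytokine receptor gene next to Zcchc12, had log2 signals of 8.22 to 9.19 on the knockdown arrays and 9.72 to 10.35 on the control arrays. It fell by 1.41 (limma, adjusted p = 0.00735, standard error 0.21). Esx1 no longer passed with passages 28 to 30 alone and passage as a block, at adjusted p = 0.0798 (limma) and a log2 difference of 0.58, and was short of 1.5-fold without knockdown replicate 1, at a log2 difference of 0.57. Under the same setting Nsdhl was at adjusted p = 0.0506 (limma), with a log2 difference of 0.64 against 0.62 over all arrays.

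Over the 8 arrays, the 5 genes whose log2 signals most resembled those of Pnma5 were Rreb1, Mypn, Slc16a14, Skida1 and Nlrp4f, with r of 0.98 to 0.99. As the groups are separated in each of them, r mostly describes that separation. They lie on 4 autosomes, and their log2 differences ran from 0.35 to 0.96.

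Markers of other cell types were examined on the same arrays. Their lists were chosen with earlier results of these data known, so that their counts beside all genes are a description. Of 7 germ line markers, 3 rose by the gene rule and none fell, beside 1.42% and 1.43% of all genes. Stag3 rose by 1.87, Sycp3 by 0.61 and Tex101 by 0.69 (limma, adjusted p = 5.64e-05, 0.00656 and 0.00295). At unadjusted p under 0.05, 3 were higher and 2 lower (limma), beside 16.8% and 13.6% of all genes. Sycp1 and Ddx4 had log2 differences of -0.79 and -0.40 (limma, adjusted p = 0.0990 and 0.0800). Sycp1 met the rule with the replicate block, at adjusted p = 0.0101 (limma). The mean log2 level of the 7 was 9.99 to 10.26 on the knockdown arrays and 9.66 to 10.07 on the control arrays. Neural markers, 12 in all, averaged 9.21 to 9.33 on the knockdown arrays and 9.14 to 9.28 on the control arrays. By the gene rule 1 was lower, Pax6, with a log2 difference of -1.01 (limma, adjusted p = 0.0212), and none higher. At unadjusted p under 0.05, 4 were higher and 2 lower (limma), and the median log2 difference was 0.13, beside 0.05 over all genes. Elavl3 had a log2 difference of 0.74 (limma, adjusted p = 0.0607). Fibroblast markers averaged 8.04 to 8.28 on the knockdown arrays and 7.99 to 8.33 on the control arrays. Thy1 rose among the 8, by 0.72 (limma, adjusted p = 0.000475), and none fell by the gene rule. At unadjusted p under 0.05, 2 were higher and 1 lower (limma). Primitive endoderm markers, 6 in all, averaged 8.79 to 9.11 on the knockdown arrays and 8.81 to 9.0 on the control arrays, with none meeting the rule with limma (unadjusted p under 0.05 in 4, of which 3 were higher, beside 16.8% of all genes higher and 13.6% lower). The part of these cells in the signal of Pnma5 was not tested, and in bulk RNA more cells of a kind and more RNA per cell cannot be told apart.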

How the data were processed

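RNA of 4 Kdm2b knockdown and 4 scrambled control samples was hybridised to whole-transcript Affymetrix mouse arrays, and the authors deposited log2 values of 35556 probe sets, background-corrected, quantile-normalized and summarised by RMA (oligo 1.18.1, per the labels' processing notes). The array annotation build is not given in the sources used here. Probe sets naming 1 gene (21789, for 19938 genes) were kept for gene results, those naming several genes (1621) or none (12146) were not. Depth does not apply to arrays, and 4 arrays a group limit the precision. All probe sets were fitted with limma 3.58.1 in R 4.3.3, without a block as in the study's methods, and p-values were adjusted by Benjamini and Hochberg across the table, and the script was tested on simulated data. A gene met the rule where the adjusted p was under 0.05 in most of its probe sets and the most significant changed by at least 1.5-fold. The family, the lists and the neighbours were chosen with earlier results of these data known. Named were all family genes, Kdm2b, every listed or neighbouring gene that met the rule, and otherwise the 2 with the smallest p. The 5 genes most like Pnma5 over the arrays and the 5 most like it in deviations from the group means were also named. Markers that met the rule, Peg10, Rtl1, Arc, Cetn2, F8a, Pmaip1, Bcl2l1, Id3, Smad7, Elavl3, Sycp1 and Ddx4 were named after their values were seen. Same-numbered arrays of the groups deviated together (r = 0.239, 0.118, 0.355 and 0.222 over probe sets, against -0.231 to 0.0747 for other pairs), so that the replicate numbers pair the arrays. Alternatives were a replicate block, an intensity trend, median centring, a filter on dim probe sets, passages 28 to 30 with passage as a block, the adjusted p alone and leaving out each array. Promoter windows, gene order and symbols came from RefSeq for GRCm38.p6 (19919 symbols matched); Pnma2 has no entry among the windows.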

Additional observations from a re-analysis of the deposited data

Results flagged for a closer look

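Of 38 sets of 4 arrays examined for a single array far from the others, 2 were flagged, and chance flags about 5% of such sets. Zcchc12 had a log2 signal of 7.89 in knockdown replicate 2, whereas the other knockdown arrays lay between 7.97 and 7.98. Id1 had a log2 signal of 10.32 in knockdown replicate 3, above the 10.12 to 10.15 of the other knockdown arrays and below all control arrays.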

How the results depend on the processing

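The log2 differences of the 6 measured Pnma genes kept their sign under every alternative that could be run on them, Pnma5 lying between 1.84 and 2.27. The number of Pnma genes meeting the rule stayed at 1, except at 2 with the adjusted p alone, where Zcchc18 was added. With the adjusted p alone, 3 MOAP1 pathway genes (Pmaip1 and Bcl2l1 added) and 3 BMP-SMAD genes (Smad7 added) passed. So did 9 neighbours and 2141 genes in all (10.7%). With passages 28 to 30 and passage as a block, which leaves 3 arrays a group, 0 MOAP1 pathway genes, 0 BMP-SMAD genes, 3 neighbours and 160 genes in all met the rule. With the replicate block, 1 other gag-derived gene, Ldoc1, met it, and 652 genes in all did. The number of BMP-SMAD genes was 3 with it, as Id3 was added, and Sycp1 was added among the germ line markers. The block ended no call among the listed genes, markers included, or the neighbours. Leaving out 1 array at a time gave 1 to 3 BMP-SMAD genes, 4 to 6 neighbours and 358 to 829 genes in all, against 569. Over all genes it was 358 when knockdown array 2 was left out, 368 for knockdown array 4 and 366 for control array 3. The filter on dim probe sets kept 2 of the 6 Pnma genes and none of the 3 further family genes. Pnma5 passed it through its knockdown arrays, so that its value there is no separate check. Dim signal limits what can be said of Pnma3, Pnma1, Zcchc12 and the control levels of Pnma5 and Zcchc18.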

Other observations

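After the mean of each group was taken off, the 15 pairs of measured family genes correlated over the 8 arrays at r from -0.764, for Pnma3 and Pnma5, to 0.883, for Pnma2 and Pnma5, with a median of 0.0375, and 8 of the 15 were positive. Knockdown replicate 1, which stood at an end of its group for Pnma1, Pnma2, Pnma3 and Pnma5, enters all pairs. The arrays share their normalization, and these values are a description. The genes whose deviations were most like those of Pnma5 were Dhx8, Fam210a, Bdp1, Trpv2 and Zdbf2, each with r = 0.99. Kdm2b had r = 0.72, at place 1389 among all genes, and like Pnma5 it was lowest in replicate 1 of both groups. Over the log2 values of the 8 arrays its r with Pnma5 was -0.87, which mostly describes the separation of the groups.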
